A study of Mus musculus with 2 samples.

Results

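The SLAM receptors and their SAP adaptors were followed here as 8 genes of the 31053 listed in the deposited matrices, matched by symbol: the receptors Slamf6, Slamf7, Ly9, Cd244, Cd48 and Cd84 and the adaptors Sh2d1a and Sh2d1b1. The genes are members of the family, and they were chosen with earlier results of these data known. The study sorted CD27+CD11b+ NK cells from the spleens of C57BL/6 mice and made 1 droplet library of 3' tags per genotype, each from 2 pooled mice. The tested genotype, NKp46CreEP3F/F, carries floxed alleles of EP3, the prostaglandin E2 receptor encoded by Ptger3, together with a Cre named for NKp46, the product of the NK receptor gene Ncr1. The control genotype, EP3F/F, carries the same floxed alleles without that Cre. Ages and sexes are not given in the sources used here, and the study's title places these mice in work on liver fibrosis and NK cell cytotoxicity.

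SLAM family receptors are surface proteins of haematopoietic cells, and most of them bind a copy of themselves on a neighbouring cell. CD244 (2B4) and CD48 are the exception among the members, since they bind each other, and CD48 is a glycolipid-anchored protein with no cytoplasmic tail. The tails of the signalling members carry immunoreceptor tyrosine-based switch motifs, on which the small SH2 adaptors SAP (Sh2d1a) and EAT-2 (Sh2d1b1) dock. SAP brings in the kinase Fyn, EAT-2 couples the receptors to phospholipase C-gamma, and inhibitory phosphatases such as SHP-1 can occupy the same motifs when the adaptors are missing. In NK cells these receptors adjust killing of haematopoietic targets.

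The coding stretches that match this docking motif are shown because the adaptors dock on this motif in the signalling receptors. Each line is a run of 6 codons from the longest coding sequence in the GENCODE M21 annotation of build GRCm38, on the coding strand and in frame, read 5' to 3'. The capitals mark the codons for threonine, for tyrosine, and for valine or isoleucine, in that order, and the remaining codons may be any.
Slamf6 match 1: ACTgtgTATgcacaaGTC
Slamf6 match 2: ACAattTACtccataGTT
Slamf7: ACAtttTATtccactGTG
Ly9 match 1: ACTccaTATgataaaGTG
Ly9 match 2: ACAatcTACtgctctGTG
Cd244 match 1: ACAataTATgaatatGTC
Cd244 match 2: ACCatgTACtctatgATA
Cd244 match 3: ACAgtaTATtcagtaGTC
Cd244 match 4: ACCgtgTACgaggagGTT
Cd84 match 1: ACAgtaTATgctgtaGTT
Cd84 match 2: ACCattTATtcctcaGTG
Cd48: ACCtacTACatgagaGTG

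Cd244 held 4 such stretches, Slamf6, Ly9 and Cd84 held 2 each, and Slamf7 held 1. The pattern is loose: 7.95% of 21584 coding genes held at least 1 match and 0.607% held at least 2. The single match in Cd48 started at coding base 313 of 720, in a protein whose anchor leaves it no tail, and the matches in Slamf6 started at bases 877 and 949 of 1053. These matches describe letters in a coding sequence and not sites shown to be used.

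Both libraries consisted mainly of NK cells, set against small classes of other cells that came through the sort. A cell was kept from 500 genes upward if mitochondrial genes gave no more than 10% of its UMIs (unique molecular identifiers, 1 per captured transcript). That left 10023 cells of the knockout library and 10928 of the control library. The NK gate, drawn on UMIs of 8 NK markers, held 8376 knockout and 9791 control cells, with medians of 3811 and 5778 UMIs per cell. ILC1-like cells numbered 103 and 36, T cells 51 and 23, macrophages 130 and 37, and MHC class II-high dendritic cells 105 and 75, in the knockout and control library in that order. All 8 T cell, 9 macrophage and 8 dendritic markers were read in their own class in both libraries. The same markers drew those gates, so this is no separate check of the class names. Ptger3 had 0 UMIs in knockout NK cells and 12 in control NK cells, too few to check the deletion closely. The ILC1-like cells kept many NK transcripts: NK effector genes left out of every gate summed to 27754 counts per 1000000 UMIs (CPM) in knockout ILC1-like cells, against 38468 in knockout NK cells, and to 20527 CPM in control ILC1-like cells, against 30753 in control NK cells. How many cells of the ILC1-like gate are NK cells was not tested. The libraries shared 33 barcode sequences.

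NK cells were ordered by a maturation index, the share of UMIs of 10 mature markers among UMIs of those and 10 less mature markers, and cut within each library into 3 stages of about equal size. The cuts fell at 21.4% and 44.4% in the knockout library, and at 33.3% and 56.4% in the control library, so equal ranks stand for different index values. The lytic granule gene Gzma, which no gate or index used, followed the index in both libraries. It stood at 7029, 9975 and 13239 CPM in least mature, intermediate and most mature knockout cells, and at 5847, 8120 and 10655 CPM in the control cells. The index is a range and not a set of types, and 2284 knockout and 2703 control NK cells lay within 5 percentage points of a cut. The stages are relative positions within cells sorted as CD27+CD11b+, and the genes of both sort markers, Cd27 and Itgam, are in the index. All intervals below are 95% counting intervals. They hold no animal-to-animal spread, since each genotype is 1 library, and no test between genotypes can be made.

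**Figure D1:**
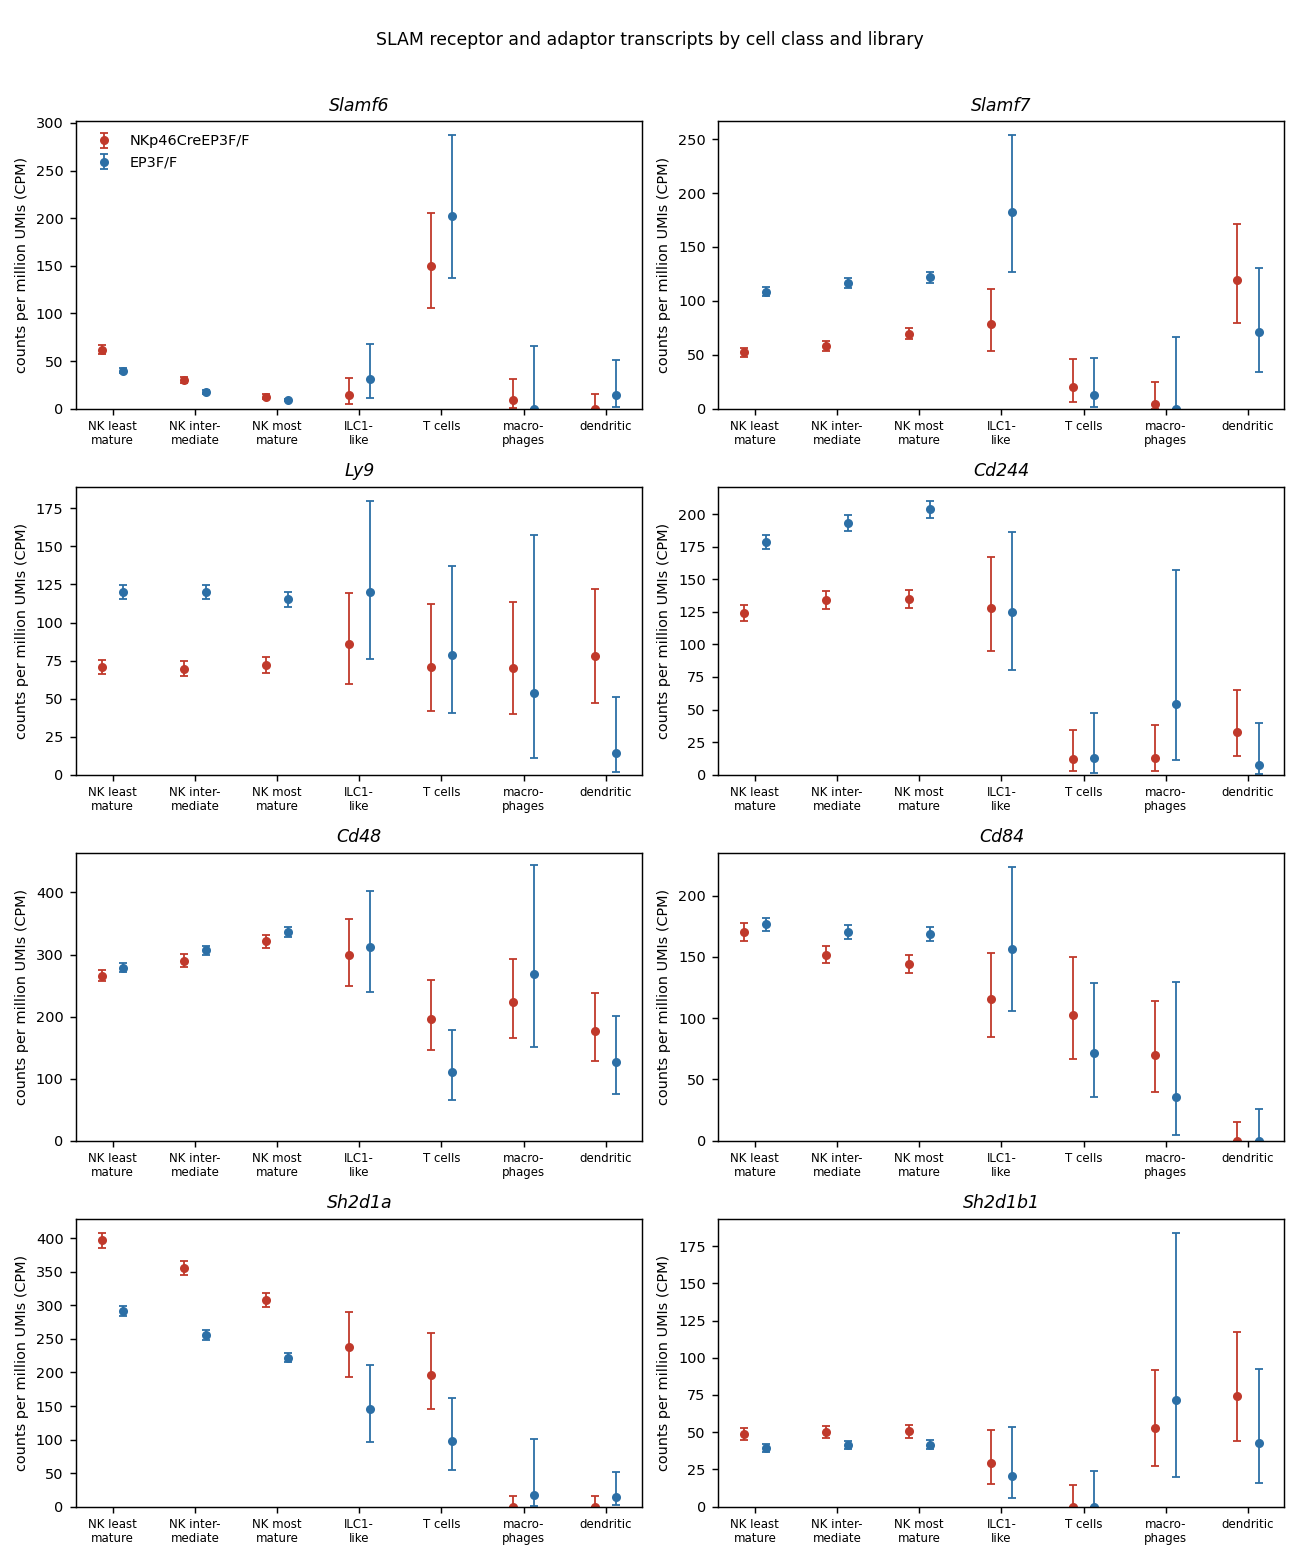
Level of each member, in counts per 1000000 UMIs of its class (linear axes), in 7 cell classes of the NKp46CreEP3F/F library (red, left) and the EP3F/F library (blue, right). Points are the summed level of a class and bars its exact Poisson interval. Slamf6 steps down across the NK stages and is highest in T cells, and Sh2d1a is near 0 in macrophages and dendritic cells.

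Slamf6 (Ly108), a self-binding receptor that signals through SAP, marked the less mature end of these sorted NK cells. It stood at 61.8, 29.9 and 12.6 CPM in least mature, intermediate and most mature knockout cells, and at 39.7, 17.6 and 8.96 CPM in control cells. The least mature stage was thus 4.90-fold above the most mature stage in the knockout library and 4.43-fold above it in the control library, as log2 ratios of most over least of -2.29 (interval -2.57 to -2.03) and -2.15 (-2.39 to -1.91). The stages did not overlap in either library. Cells with a Slamf6 UMI made up 19.2%, 10.3% and 4.44% of the 3 knockout stages, and 18.3%, 8.67% and 4.40% of the control stages. After thinning every cell to 2000 UMIs these shares were 10.5%, 5.32% and 2.26% in the knockout library and 6.48%, 2.99% and 1.60% in the control library. The order of the stages held at equal depth. In macrophages, which should lack the gene, 1.54% of 130 knockout cells had a UMI at a median depth of 1415.5 UMIs. Of the control macrophages 0 of 37 had one, and the counting interval of that level reached 66.2 CPM.

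T cells held more Slamf6 than any NK stage. The level was 149 CPM (38 UMIs in 21 of 51 cells) in knockout T cells and 202 CPM (31 UMIs in 13 of 23 cells) in control T cells, or 4.20-fold and 8.80-fold above the NK cells of the same library. The log2 ratios of T over NK cells, 2.07 (1.57 to 2.54) in the knockout library and 3.14 (2.58 to 3.65) in the control library, both lay clear of 0. The knockout T cell level dropped to 86.2 CPM under a filter of at least 1000 genes and at most 5% mitochondrial UMIs, which left 16 of the 51 cells. T cells that also carried NK receptor UMIs were at 61.3 CPM in the knockout library and 43.5 CPM in the control library, between T cells and NK cells. T cell markers summed to 28.0, 20.6 and 20.1 CPM across the knockout NK stages, and to 16.4, 11.5 and 13.1 CPM across the control stages. They were highest in the least mature stage, where Slamf6 was highest, and their part in the gradient was not tested. ILC1-like cells had 14.7 CPM (6 UMIs) in the knockout library and 31.3 CPM (6 UMIs) in the control library, within counting error of the NK stages next to them in the order of levels.

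Slamf7 (CRACC), a self-binding receptor that uses EAT-2 in NK cells, leaned the other way with maturation, and by less. It stood at 52.2, 58.1 and 69.4 CPM across the knockout stages and at 108, 116 and 122 CPM across the control stages. The log2 ratio of most over least was 0.41 (0.26 to 0.57) in the knockout library and 0.17 (0.09 to 0.25) in the control library. Slamf7 was the one member past 0.32, the log2 size used here for naming a difference (1.25-fold), in the upward direction, and only in the knockout library, where it came to 0.30 when cells were thinned before the index was made. The difference between the libraries' gradients was not tested. Among all 7330 genes measured (a mean of at least 10 CPM in NK cells), 5.84% were higher by that size in the most mature knockout stage, and 3.75% in the most mature control stage.

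Outside the NK stages, Slamf7 was found in ILC1-like and dendritic cells and was scarce in T cells and macrophages. ILC1-like cells had 78.6 CPM in the knockout library and 183 CPM in the control library, and the control value lay above all 3 control NK stages. Dendritic cells had 119 CPM (29 UMIs in 21 of 105 cells) in the knockout library and 70.8 CPM (10 UMIs in 7 of 75 cells) in the control library. NK RNA carried into those droplets, estimated from the kept-apart NK genes, would give 0.602 and 1.51 UMIs there in the knockout and control library. The counts thus exceeded the estimate in both libraries. T cells held 5 UMIs (19.7 CPM) in the knockout library and 2 (13.1 CPM) in the control library, and macrophages held 1 and 0. Among NK cells, those with many UMIs of the chemokine genes Ccl3, Ccl4 and Xcl1 and of Nr4a3, an immediate early nuclear receptor, were high in Slamf7. The 17 such knockout cells averaged 294 CPM (186 to 441) and the 114 such control cells 276 CPM (243 to 313), against 59.4 and 115 CPM in all NK cells of the same libraries.

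Ly9 (SLAMF3, CD229), another self-binding receptor, had the same level at every NK stage within counting error. The stages stood at 70.8, 69.7 and 72.0 CPM in the knockout library and at 120, 120 and 115 CPM in the control library, with log2 ratios of most over least of 0.03 (-0.12 to 0.17) and -0.06 (-0.14 to 0.02). Outside the NK stages, ILC1-like cells had 85.9 and 120 CPM, T cells 70.8 and 78.4 CPM, and macrophages 70.0 and 53.9 CPM, in knockout and control cells. No pair of neighbours in the order of the 7 classes was separated by its counting interval in either library, although the ends of the control order were. Dendritic cells held 19 UMIs (78.2 CPM) in the knockout library, 8 of them in 1 cell, and 2 UMIs (14.2 CPM) in the control library, where NK RNA would give 0.720 and 1.56. The control dendritic cells thus lay below control NK cells, at a log2 ratio of -3.06 (-6.11 to -1.21), and no Ly9 beyond what NK RNA would give was detectable in them.

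Cd84 (SLAMF5), also self-binding, declined slightly with maturation. It stood at 170, 152 and 144 CPM across the knockout stages and at 176, 170 and 168 CPM across the control stages, with log2 ratios of -0.24 (-0.34 to -0.15) and -0.07 (an interval that ended just below 0). Both were smaller than the size used for naming. T cells had 102 and 71.8 CPM and macrophages 70.0 CPM (16 UMIs) and 35.9 CPM (2 UMIs), in knockout and control cells. Of the 30 knockout macrophages deep enough for thinning to 2000 UMIs, none held Cd84. Dendritic cells had 0 UMIs in both libraries. A floor of 3 UMIs in dendritic cells lay 12.6-fold below the NK level of Cd84 in the knockout library and 8.09-fold below it in the control library. NK RNA would give 0.465 UMIs in knockout and 0.308 in control macrophages, so that Cd84 in macrophages exceeded it in the knockout library, by its 16 UMIs, and not in the control library.

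The receptor Cd244 and its ligand Cd48 both leaned toward mature NK cells. Cd244 stood at 124, 134 and 135 CPM across the knockout stages and at 179, 194 and 204 CPM across the control stages. Cd48 stood at 266, 290 and 321 CPM across the knockout stages and at 279, 307 and 337 CPM across the control stages. Their log2 ratios of most over least were small, 0.13 (0.02 to 0.23) and 0.19 (0.12 to 0.25) for Cd244 and 0.27 (0.20 to 0.34) and 0.27 (0.22 to 0.32) for Cd48, in the knockout and control library. Outside the NK lineage the pair separated. Cd48 was read in every class, with 197 and 111 CPM in T cells, 223 and 269 CPM in macrophages, and 177 and 127 CPM in dendritic cells of the knockout and control library. Cd244 had 128 and 125 CPM in ILC1-like cells but only 3 and 2 UMIs in T cells, 3 and 3 in macrophages, and 8 and 1 in dendritic cells. The ligand was thus read in all cell classes of the sort. The receptor was lower in T cells, macrophages and dendritic cells than in NK cells of the same library. NK RNA would give 0.391 and 0.342 Cd244 UMIs in knockout and control macrophages, below the lower counting bound of 0.619 in each. In dendritic cells it would give 1.33 in the knockout library, below the bound of 3.45, and 2.51 in the control library. In T cells it would give 2.73 and 2.41. The 52 and 24 Cd244 UMIs in knockout and control ILC1-like cells compare with the 38.4 and 24.5 that NK RNA would give. The counting interval of the 52 began at 38.8.

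The adaptor Sh2d1a (SAP) was read mainly in NK, ILC1-like and T cells. It declined with maturation, from least to most mature 397, 356 and 308 CPM in the knockout library and 292, 256 and 222 CPM in the control library. The log2 ratios of most over least were -0.36 (-0.43 to -0.30) and -0.39 (-0.45 to -0.34), and came to -0.26 and -0.30 when cells were thinned before the index was made. Slamf6 and Sh2d1a were the 2 members lower by at least 0.32 in the most mature stage of each library, where 4.26% of all measured genes were in the knockout library and 2.88% in the control library. ILC1-like cells had 238 CPM (97 UMIs) in the knockout library and 146 CPM (28 UMIs) in the control library. NK RNA would give 104 and 33.1 UMIs there, and 67.4 and 23.1 when Ccl5 was left out of its genes. The counting intervals of the 97 and the 28 began at 78.7 and 18.6. Whether the knockout count exceeded the estimate thus depended on Ccl5, and the interval of the control count held both estimates. The estimate takes all RNA of those NK genes in the class as NK RNA, at 72.1% and 66.7% of the NK level in the knockout and control library. It therefore cannot tell whether ILC1-like cells hold Sh2d1a of their own. T cells had 197 and 98.0 CPM (50 and 15 UMIs) in the knockout and control library, where NK RNA would give 7.43 and 3.26 UMIs. Macrophages held 0 and 1 UMIs and dendritic cells 0 and 2. NK RNA in those droplets would have given 1.06 and 0.462 UMIs in macrophages and 3.60 and 3.39 UMIs in dendritic cells, so that no Sh2d1a beyond carried-in NK RNA was detectable there. In the knockout library the floor of 3 UMIs lay 27.1-fold below the NK level of Sh2d1a in macrophages and 28.8-fold below it in dendritic cells.

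The other adaptor, Sh2d1b1 (EAT-2), did not follow maturation and crossed into myeloid cells. Its NK stages stood at 48.5, 49.9 and 50.5 CPM in the knockout library and at 39.4, 41.4 and 41.4 CPM in the control library, within counting error of each other. T cells held 0 UMIs in both libraries. A floor of 3 UMIs in T cells lay 4.20-fold below the NK level of Sh2d1b1 in the knockout library and 2.08-fold below it in the control library. The counting intervals of the log2 ratio of T over NK cells ended at -1.77 and -0.75. Macrophages held 12 UMIs, each in a different cell, in the knockout library (52.5 CPM) and 4 in the control library (71.8 CPM). Dendritic cells held 18 UMIs in 16 of 105 knockout cells (74.1 CPM) and 6 UMIs in 6 of 75 control cells (42.5 CPM). Carried-in NK RNA would have given 0.148 and 0.0727 UMIs in macrophages and 0.502 and 0.534 UMIs in dendritic cells, in the knockout and control library. The lower counting bounds, 6.20 and 1.09 in macrophages and 10.7 and 2.20 in dendritic cells, stood above those estimates in all 4 cases. Among these classes, T cells held Sh2d1a without detectable Sh2d1b1, myeloid cells held Sh2d1b1 without Sh2d1a beyond the estimate, and NK cells held both. T cells that also carried NK receptor UMIs held 18 knockout and 43 control Sh2d1b1 UMIs, where NK RNA would give 19.6 and 28.4. The counting interval of the 43 began at 31.1. The related gene Sh2d1b2 had 3 and 21 UMIs in knockout and control NK cells, and none of 451 windows of 50 bases from the last 500 bases of Sh2d1b1 occurred in it. Macrophages and dendritic cells were shallow, with medians of 1415.5 and 1940 UMIs in the knockout library and 1151 and 1667 in the control library. Droplets with both macrophage and NK markers, 202 and 118, were kept out of these classes.

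**Figure D2:**
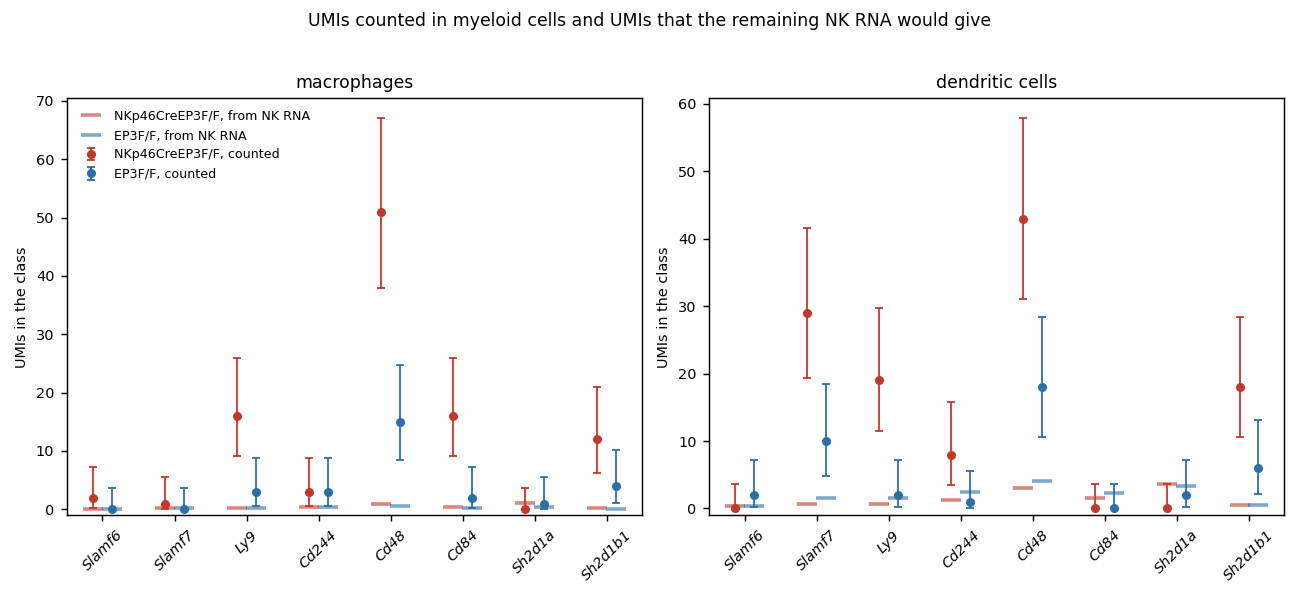
UMIs of each member counted in macrophages (left panel) and dendritic cells (right panel) of the NKp46CreEP3F/F library (red) and the EP3F/F library (blue), as points with exact Poisson intervals, and as horizontal dashes the UMIs that remaining NK RNA would give. Cd48 and Sh2d1b1 lie above the dashes in both classes, and Slamf7 lies above them in dendritic cells.

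Between the genotypes, NK cells of the knockout library had less of 3 receptors and more of 1 receptor and 1 adaptor. Slamf7 stood at 59.4 CPM in knockout NK cells and 115 CPM in control NK cells, a log2 ratio of knockout over control of -0.95 (-1.03 to -0.88). Ly9 stood at 71.0 CPM in knockout cells and 119 CPM in control cells (-0.74, -0.81 to -0.67), and Cd244 at 131 CPM in knockout cells and 191 CPM in control cells (-0.55, -0.60 to -0.50). These 3 receptors were lower in the knockout library by more than the size used for naming. Slamf6 was higher, at 35.6 CPM in knockout cells and 23.0 CPM in control cells (0.63, 0.52 to 0.74). Sh2d1a was also higher, at 355 CPM in knockout cells and 258 CPM in control cells (0.46, 0.43 to 0.49).

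The remaining 3 members differed by less. Cd48 stood at 292 CPM in knockout cells and 305 CPM in control cells (-0.07, -0.10 to -0.03), Cd84 at 156 and 172 CPM (-0.14, -0.19 to -0.10), and Sh2d1b1 at 49.5 and 40.7 CPM (0.28, 0.20 to 0.37). Differences of this size were common in these 2 libraries: 14.7% of the 7330 measured genes were higher in knockout NK cells by a log2 ratio of at least 0.32 and 29% were lower, and the median log2 ratio was -0.10 over the 8 members and -0.07 over all measured genes. The 2 of 8 higher and 3 of 8 lower members therefore lie near the background. Among all measured genes, Slamf7 lay at the 2.67th percentile of the log2 ratio, Slamf6 at the 96.7th and Sh2d1a at the 92.5th.

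The genotype ratios kept their signs across the stages of maturation, and differences between stages were not tested. The stages were cut within each library, at 21.4% and 44.4% of the index in knockout and at 33.3% and 56.4% in control cells. Stages of the same name were thus not matched in index value between the libraries. Slamf7 ratios lay between -1.05 in the least mature stage and -0.81 in the most mature one. Ly9 ratios were -0.76, -0.78 and -0.68 in the least mature, intermediate and most mature stages, and Cd244 ratios -0.53, -0.53 and -0.59. Slamf6 ratios were 0.64, 0.76 and 0.49, and Sh2d1a ratios 0.45, 0.48 and 0.47. Each of these 5 members kept its direction and passed 0.32 in all 3 stages, where 14.6%, 15.3% and 15.3% of measured genes were higher by that size and 29.8%, 29.3% and 30.5% lower, from least to most mature. At 2000 UMIs per cell, 10.5% of knockout NK cells and 19.6% of control NK cells had a Slamf7 UMI, 6.03% and 3.72% a Slamf6 UMI, and 49.0% and 38.1% an Sh2d1a UMI. Without thinning, the Slamf6 shares were 11.2% of knockout cells and 10.5% of control cells, since the control cells were read more deeply. Thinning left out 168 knockout and 132 control NK cells.

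Markers of other lineages were also higher in knockout NK cells: T cell markers summed to 23.0 CPM in knockout and 13.7 CPM in control NK cells (7 of 8 markers read in each), and macrophage markers to 8.77 and 3.68 CPM (9 of 9 markers read in each). In NK cells with 0 UMIs of any other lineage's markers, Slamf6 stood at 34.1 CPM in the knockout library and 22.1 CPM in the control library, and Slamf7 at 57.2 and 114 CPM. The log2 ratios there were 0.63 for Slamf6, -0.99 for Slamf7, -0.71 for Ly9, -0.55 for Cd244 and 0.46 for Sh2d1a. In all NK cells they were 0.63, -0.95, -0.74, -0.55 and 0.46 in that order. The part of other-lineage RNA in these ratios was not tested.

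**Figure D3:**
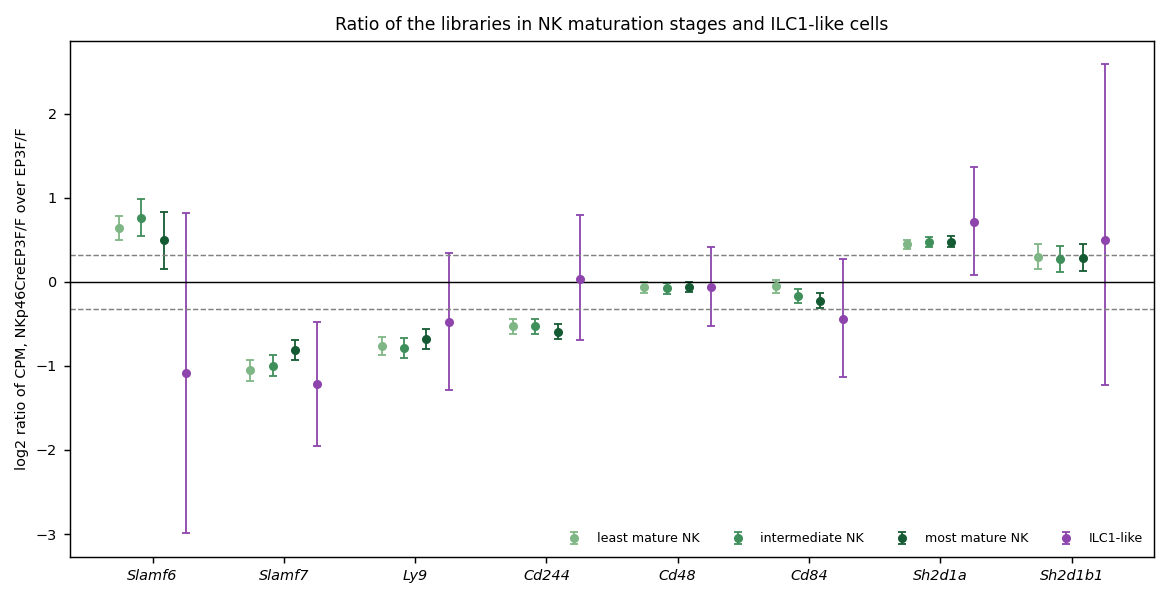
Log2 ratio of each member's CPM, NKp46CreEP3F/F over EP3F/F, in the 3 NK maturation stages (greens) and in ILC1-like cells (purple), with exact conditional binomial intervals. The solid line is no difference and the dashed lines are the size of 0.32 used for naming. Slamf7, Ly9 and Cd244 lie below the lower dashed line in all 3 stages and Sh2d1a above the upper one, while intervals in ILC1-like cells are wide.

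Outside NK cells few ratios could be read. Sh2d1a was higher in the knockout library in ILC1-like cells, with 97 UMIs in knockout and 28 in control cells (log2 ratio 0.71, 0.09 to 1.37). Neither count was above the NK RNA estimate, although the interval of the 97 lay above it once Ccl5 was left out. In T cells Sh2d1a was also higher in the knockout library, with 50 and 15 UMIs (1.01, 0.15 to 1.94). Slamf7 was lower in knockout ILC1-like cells, with 32 UMIs in 103 knockout cells and 35 UMIs in 36 control cells (-1.22, -1.95 to -0.48). The Slamf6 ratio in T cells, -0.44 (-1.16 to 0.29), held 0 within its interval, as did the Slamf7 ratio in chemokine-high NK cells, 0.09 (-0.60 to 0.71).

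**Figure D4:**
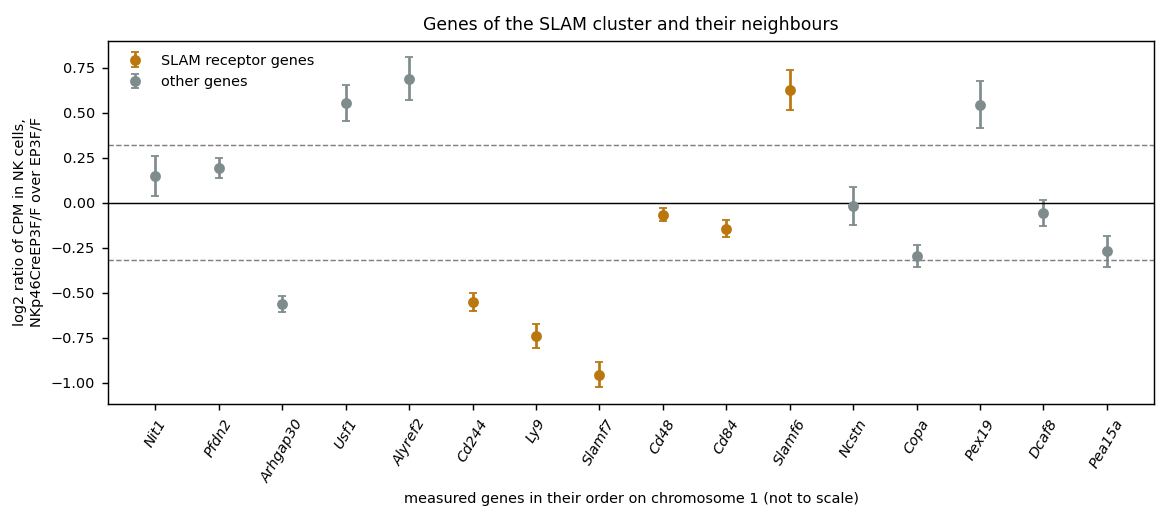
Log2 ratio of CPM in NK cells, NKp46CreEP3F/F over EP3F/F, for the measured genes of the SLAM cluster (gold) and their measured neighbours (grey) in their order along chromosome 1, with exact conditional binomial intervals. Dashed lines mark 0.32 in either direction. Cd244, Ly9 and Slamf7, next to each other, have the lowest ratios together with Arhgap30, and Slamf6 lies at the other end of the cluster above the upper dashed line.

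All 6 receptor genes lie side by side on chromosome 1, with Slamf1 among them, in the order Cd244, Ly9, Slamf7, Cd48, Slamf1, Cd84, Slamf6. Sh2d1b1 lies elsewhere on chromosome 1, and Sh2d1a lies on the X chromosome. The 3 receptors that were lower in knockout NK cells are the first 3 of that row, and Slamf6, which was higher, is the last. Differences of both signs also occurred among the neighbours: of 10 measured genes flanking the cluster, 3 were higher by at least 0.32 and 1 was lower. Near Cd244, Alyref2 had a ratio of 0.69 and Usf1 of 0.56, and Arhgap30 had -0.56.

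The other genes of SLAM signalling, a list of 20, were mostly lower in knockout NK cells where they moved. Of the 15 measured, 0 were higher and 9 were lower by at least 0.32, with a median log2 ratio of -0.36, against 14.7% higher, 29% lower and a median of -0.07 over all measured genes. The list was chosen with earlier results of these data known, so these counts are a description and not a test of the set. Ptpn6, which encodes the inhibitory phosphatase SHP-1, stood at 37.2 CPM in knockout cells and 82.6 CPM in control cells (-1.15, -1.24 to -1.06). Vav3 stood at 12.7 and 26.8 CPM (-1.07), and Plcg2, a phospholipase C-gamma, at 28.4 and 44.5 CPM (-0.65). Next in size were the phosphatase SHP-2 (Ptpn11, -0.43), protein kinase C-theta (Prkcq, -0.42), the ubiquitin ligases Cblb (-0.38) and Cbl (-0.38), and the adaptor Crk (-0.36). Scaling by median-of-ratios size factors in place of total UMIs left 5 of the 9 past 0.32. Subtracting the median ratio of the 300 measured genes nearest in exon length left 3 of these past 0.32: Ptpn6 at -1.29, Vav3 at -0.93 and Plcg2 at -0.61. Under the same subtraction Cbl came to 0.03, Cblb to -0.04 and Prkcq to -0.15. The 14.7% and 29% of all measured genes hold for scaling by total UMIs. They are not a background for the counts under either alternative. The kinases that act beside SAP differed little, with Fyn at 320 and 350 CPM (-0.13) and Lck at 286 and 332 CPM (-0.21) in knockout and control NK cells.

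By maturation few genes of the same list passed that size. In the most mature stage 2 of the 15 genes were higher by at least 0.32 in the knockout library, Plcg2 (0.44) and Ptpn6 (0.41), and 1 in the control library, Plcg2 (0.34), and 0 were lower in either. Of all measured genes, 5.84% (knockout) and 3.75% (control) were higher by that size in the most mature stage, and 4.26% and 2.88% lower. The family members outside the 8 were scarce in NK cells: Slamf1 had 22 UMIs in knockout and 22 in control NK cells, Slamf8 had 1 and 1, and Slamf9 had 0 and 0. Slamf8 was read in macrophages (8 UMIs in knockout and 1 in control cells) and dendritic cells (2 and 5), and Slamf9 in macrophages (4 and 1) and in control dendritic cells (2).

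Seen per cell at 2000 UMIs, an NK cell held UMIs of 1.80 of the 8 members on average in the knockout library and of 1.95 in the control library, and 30.7% and 27.4% of cells held UMIs of exactly 1. Of the 28 pairs of members, 2 had shares whose intervals did not overlap in the knockout library. Cd48 was read in 35.4% of Slamf6-positive and 44.2% of Slamf6-negative knockout cells, and Sh2d1a in 56.4% and 48.5%. In the control library 2 other pairs stood apart: Cd244 was read in 34.7% of Slamf7-positive and 30.7% of Slamf7-negative cells, and Cd48 in 48.6% and 44.3%. Pairs of other genes were not counted, so the 2 of 28 pairs in each library have no background beside them. Along the maturation stages Slamf6 and Sh2d1a also went down together while Cd48 went up, and the part of maturation in these pairs was not tested.

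Genes with the most similar profile to each member, by Pearson r of log2(CPM + 10) over the 14 combinations of class and library, among 5144 genes, are given as a description; the points share libraries and depth. Sh2d1a was closest to Sh2d2a (0.98), which encodes another SH2 adaptor of T and NK cells, and to Cd2 (0.98), a relative of the SLAM receptors that binds CD48 in mice. Cd84 was closest to Vps37b (0.98) and Inpp1 (0.98), Cd244 to Anxa2 (0.96) and Cuedc1 (0.96), and Sh2d1b1 to Rnf130 (0.96) and Exosc9 (0.92). Slamf7 was closest to Nedd4 (0.95) and Vps29 (0.92), Cd48 to Nucb1 (0.95) and Tmem165 (0.95), Ly9 to Crkl (0.92) and Usp4 (0.91), and Slamf6 to Fam78a (0.88) and Snhg12 (0.88).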

How the data were processed

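The deposited matrices hold counts of UMIs per gene and barcode, with no normalization by the authors. Per the submitters' processing notes, STAR, Cell Ranger 3.0.0 and Seurat were used with build GRCm39. The members and lists were chosen with earlier results of these data known. Members were counted by symbol. In GENCODE M21, exons of Slamf7 overlap Gm37787 and exons of Sh2d1a overlap Tenm1, so reads shared with those genes are uncertain. Only gene order, coding sequences and exon lengths were taken from the GRCm38 reference, because its build differs from that of the files.

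The knockout library held 42795121 UMIs over 10615 barcodes and the control library 69853026 over 11785. Cells needed at least 500 genes and at most 10% mitochondrial UMIs. NK cells needed at least 5 UMIs over at least 3 NK markers, ILC1-like cells at least 4 UMIs over at least 2 ILC1 markers and 0 UMIs of Klra4, Klra8 and Eomes, T cells at least 4 over at least 2 markers, macrophages at least 5 over at least 3, and dendritic cells at least 8 over at least 3. Each of these gates also limited the UMIs of some other lineages. This is how doublets were treated, and no doublet caller was run. The macrophage gate limited NK, T and B cell markers but not dendritic markers. Those summed to 12949 CPM in knockout and 5190 CPM in control macrophages. Cst3, Ccr2, Ighm and Tcf4 were left out of the gates because NK cells carried them. The maturation index needed at least 5 marker UMIs, which left out 132 knockout and 95 control NK cells.

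Levels are counts per 1000000 UMIs of a class (CPM) with exact Poisson intervals, shares have exact Clopper-Pearson intervals, and ratios exact conditional binomial intervals, at 95%; all cover counting error alone. Zero counts were read against a floor of 3 UMIs in the class. The levels are of 3' tags and were not compared between genes. A log2 ratio of 0.32 was the size used for naming. On simulated data over 7330 genes, 100 of 100 genes changed by 1.5-fold and 100 of 100 halved genes were recovered in the comparison of the libraries' NK cells. This recovery cannot speak to spread between animals or libraries, since each genotype is 1 library. Carried-in NK RNA was the level of Prf1, Gzma, Klrd1, Klra3, Klra7, Klrb1f, Ccl5 and Nkg7 relative to NK cells. The text names all 8 members, the 8 measured genes of the signalling list with the largest absolute ratio, the 2 genes most alike to each member, and chromosome neighbours; Fyn, Lck and the unmeasured SLAM genes were named after their values were seen. Scripts ran under Python 3.11.15 with pandas 2.3.3, scipy 1.17.1, matplotlib 3.10.9 and numpy 2.4.6.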

Additional observations from a re-analysis of the deposited data

Results flagged for a closer look

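The genotype ratio of 3 members went one way in NK cells and the other way in another cell class or in a subset of the NK cells, with both intervals clear of 0, and no difference between classes was tested. Ly9 had a log2 ratio of knockout over control of 2.47 (0.41 to 5.61) in dendritic cells and of -0.74 in NK cells, -0.64 in dividing NK cells, -1.54 in chemokine-high NK cells and -0.47 in macrophage and NK droplets. The dendritic cell ratio rests on 19 UMIs in 9 of 105 knockout dendritic cells and 2 UMIs in 2 of 75 control cells, and without the knockout cell that held 8 of the 19, an alternative chosen after seeing the data, the ratio was 1.71 (-0.48 to 4.93), an interval that holds 0. Cd48 had a ratio of 0.82 (0.01 to 1.71) in T cells, from 50 UMIs over 51 knockout cells and 17 UMIs over 23 control cells, and of -0.065 in NK cells. In dividing NK cells, which are part of the NK cells, the Cd48 ratio was 0.38 (0.08 to 0.68), from 115 UMIs over 32 knockout cells and 546 UMIs over 167 control cells. Sh2d1b1 had a ratio of -0.95 (-1.84 to -0.13) in T cells with NK receptor UMIs, from 18 UMIs in 18 of 140 knockout cells and 43 UMIs in 37 of 116 control cells, and of 0.28 in NK cells and 0.87 in dividing NK cells. NK RNA would give 19.6 UMIs in those knockout cells and 28.4 in those control cells.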

How the results depend on the processing

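No paired analysis was possible because each genotype is 1 library. When cells were thinned to 2000 UMIs before the index was made, the members higher by 0.32 in the most mature stage fell to 0 in the knockout library (1 as reported), and those lower to 1 in the knockout library and 1 in the control library (2 each as reported): Slamf6 stayed past 0.32, and Sh2d1a came to -0.26 and -0.30. No ratio of a member that was past 0.32 changed sign under any alternative run. Of the alternative genotype ratios, 42 moved by less than counting error and 15 by more; Slamf6 ran between 0.63 and 0.98, Slamf7 between -0.99 and -0.89, Ly9 between -0.81 and -0.67, Cd244 between -0.60 and -0.43 and Sh2d1a between 0.46 and 0.60. Median-of-ratios scaling put Sh2d1b1 at 0.35, past the naming size, and Cd48 at 0.00, and length adjustment put Cd84 at 0.04. Of the maturation ratios, 59 moved by less and 5 by more. Estimates of carried-in NK RNA without Ccl5, an alternative chosen after seeing the data, were lower in dendritic, T and ILC1-like cells. In ILC1-like cells the level relative to NK cells fell from 72.1% to 46.5% in the knockout library. In control ILC1-like cells it fell from 66.7% to 46.6%. Depth limits the small classes: thinning left 30 knockout and 3 control macrophages, and the stricter cell filter 13 and 1, so levels there moved most.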
